A study of Mus musculus with 9 samples.

Results

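The genes of vesicle fusion and exocytosis were followed in hypothalamic RNA from Clic1 knockout (KO) and wild-type (WT) mice. They were chosen by symbol alone, as the numbered Syt, Vamp, Stx, Stxbp, Cplx and Syn genes, Snap23, Snap25, Snap29, Snap47 and Snap91, and Unc13a, Unc13b, Unc13c, Nsf, Napa, Napb, Rims1, Rims2, Cadps, Cadps2 and Doc2b. Of 14351 genes with values, 64 met this rule. It uses no expression value, although it was set with earlier results of these data known. Snap91, which encodes a clathrin assembly protein of synaptic vesicle retrieval, came in through its symbol and is not a SNARE.

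Neurons release transmitters and peptides when a vesicle fuses with the plasma membrane. A SNARE on the vesicle (a VAMP, or synaptobrevin) zips together with plasma membrane SNAREs (a syntaxin and a SNAP protein), calcium-binding synaptotagmins trigger the fusion, and complexins hold the partly zipped complex. Syntaxin-binding proteins and the priming proteins of the Unc13, Rims and Cadps families prepare the vesicle beforehand, and the ATPase encoded by Nsf, with its SNAP adaptors Napa and Napb, takes the spent complexes apart. In the hypothalamus the same machinery serves fast synapses and the release of neuropeptides such as vasopressin.

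RNA sequencing covered 5 KO mice, numbered 2, 4, 6, 8 and 10, and 4 WT mice, numbered 1, 3, 9 and 11, with 1 library from each, in a study that asked what loss of Clic1, a chloride intracellular channel protein, changes in a brain region that controls feeding. All mice were male and fed normal chow, and neither the labels nor the methods gave the age of these animals. The KO was a constitutive deletion in the whole body, the controls were WT littermates, and no other allele or agent was named for either group. The methods placed the KO mice on a CD-1 background, whereas the labels gave C57b/6J as the strain of every sample. The labels also named frozen perigonadal fat in the treatment field, although tissue and source were given as hypothalamus. Of the 10 hypothalamic peptide genes used as markers all 10 had values, and of the 5 adipose markers (Adipoq, Lep, Plin1, Cidec, Fabp4) 0 were among the genes with values.

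Values are the authors' normalized CPM, read counts scaled to the size of each library. The depth estimated from the smallest steps of these values was 5.45 to 7.70 M reads (M for mega) in KO replicates 2 to 8, 20.8 M in KO replicate 10 and 7.27 to 11 M in the WT libraries. The knockout check gave Clic1 a level of 4.77 ± 0.868 CPM in WT (SD, n = 4) and of 1.33 ± 0.429 CPM in KO (SD, n = 5), a difference of -1.80 on the log2 scale (limma adjusted p = 0.0153). Replicate 10 carried conflicting labels: its sample description marked it as KO, its title and treatment field as WT. It was kept as KO, and the main differences between KO and WT are given with and without it. Its Clic1 value was 1.43 CPM, within the range of the other KO libraries (0.733 to 1.93 CPM) and below the WT range (3.58 to 5.52 CPM). In 58.5% of all genes replicate 10 was the highest or the lowest of the 9 libraries, against 11.4% to 21.8% for each other one. Since whole tissue was sequenced, fewer cells of a type and less RNA per cell cannot be told apart.

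As a group, the vesicle fusion genes were centred on no difference between KO and WT hypothalamus. In KO, 31 of 64 estimates were higher and 33 lower, and the median difference was -0.0044 on the log2 scale (0.00089 over all genes, of which 50.4% were higher). The differences ranged from -0.26 for Vamp2 to 0.82 for Vamp5, 45 of 64 were under 0.1 in size and 5 were over 0.2. None passed an adjusted p of 0.05 in limma (0 of 64), where 0.286% of all genes did, 20 higher and 21 lower. At an unadjusted limma p under 0.05, 2 of 64 (Napb and Vamp5) were called, beside 6.5% of all genes. Vamp5, also the top of the range, reached 1 CPM, the level of the authors' filter, in 4 KO and 0 WT libraries. Its call is therefore a description only. With limma-voom, fitted to CPM multiplied by the estimated depth, 0 of 64 passed the adjusted threshold (0.251% of all genes) and 3 of 64 the unadjusted one (7.83% of all genes). Without KO replicate 10, 1 of 64 (Napb) passed the adjusted threshold, where 0.606% of all genes did.

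**Figure D1:**
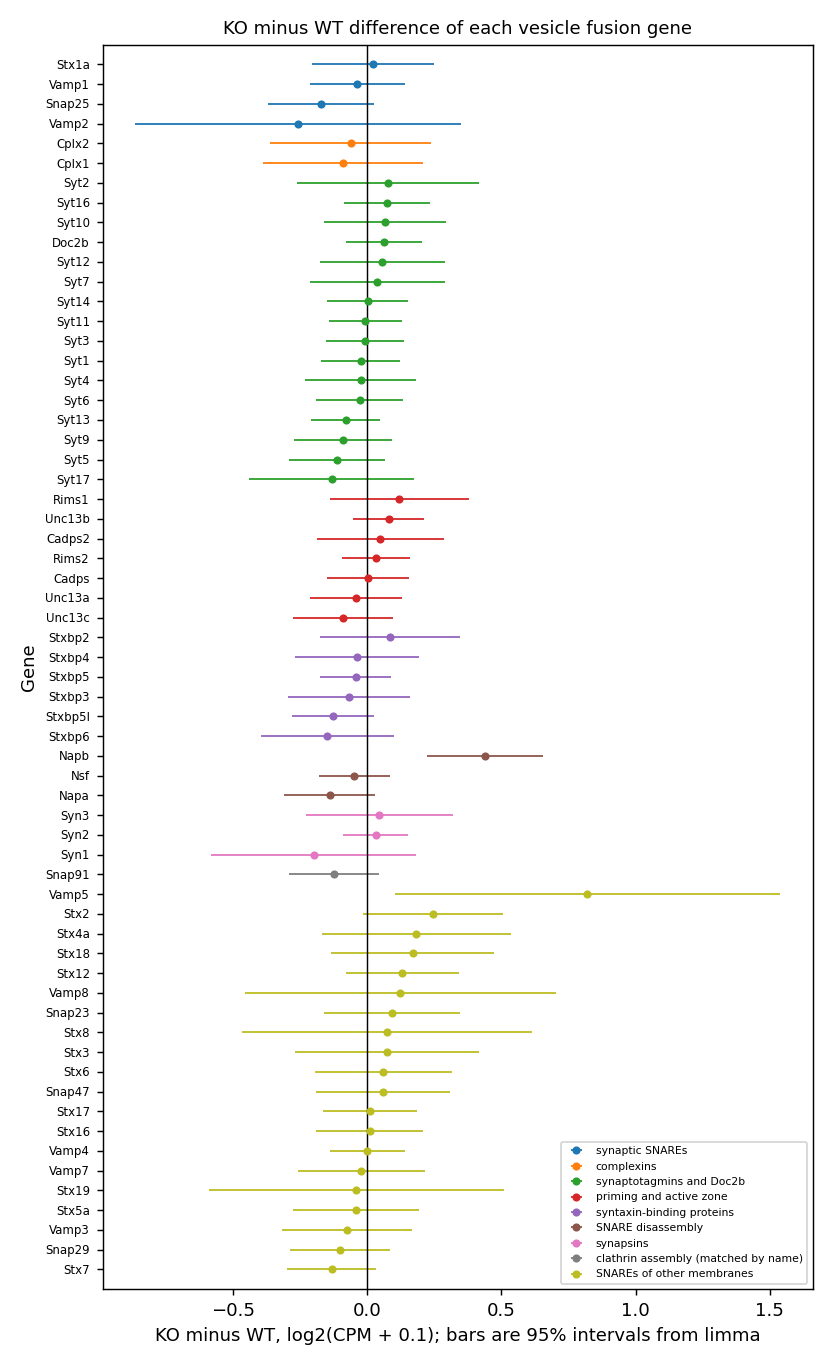
KO minus WT difference of 62 vesicle fusion genes on the log2(CPM + 0.1) scale, with its 95% confidence interval from limma, grouped by role. Most intervals cross 0 within 0.5 on either side, and Napb and Vamp5 are the genes whose intervals lie above 0. Vamp5 reached 1 CPM, the level of the authors' filter, in 4 KO and 0 WT libraries.

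The size of difference that these libraries could miss can be read from the intervals. The 95% confidence interval of KO minus WT lay within -0.5 to 0.5 on the log2 scale for 55 of 64 vesicle fusion genes, beside 69.7% of all genes. It lay within -1 to 1 for 63 of 64 (93.5% of all genes), with Vamp5 outside. The 9 genes beyond the narrower limit were Napb, Stx19, Stx2, Stx4a, Stx8, Syn1, Vamp2, Vamp5 and Vamp8.

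Among the SNAREs of the synapse, Snap25 and Vamp2 were abundant and Stx1a, a plasma membrane syntaxin, was scarce. Per kilobase of the longest coding transcript, Snap25 had the highest level of the 63 genes with a transcript length, 503 ± 60.8 CPM per kb (SD over 9 libraries), followed by Vamp2 with 366 ± 89.1. Stx1a had 15.5 ± 1.64 CPM per kb. Vamp1, the second neuronal synaptobrevin, had 51.6 ± 4.35 CPM per kb.

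Snap25, the plasma membrane SNARE that contributes 2 helices to the complex, measured 988, 981, 1006, 1044 and 993 CPM in KO replicates 2, 4, 6, 8 and 10, and 1078, 1297, 925 and 1257 CPM in WT replicates 1, 3, 9 and 11. The KO values lay close together and inside the wider WT range, below 3 of the 4 WT libraries. The difference was -0.17 on the log2 scale (SE 0.09, limma adjusted p = 0.794, exact permutation p = 0.175), and also -0.17 without KO replicate 10 (limma adjusted p = 0.49).

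Vamp2, the main synaptobrevin of synaptic vesicles, measured 887, 909, 872, 872 and 299.9 CPM in KO replicates 2, 4, 6, 8 and 10, and 866, 939.9, 756 and 861 CPM in WT replicates 1, 3, 9 and 11. The first 4 KO libraries lay within the WT range and replicate 10 was far below every other library. The KO minus WT difference was -0.26 (log2, SE 0.28, limma adjusted p = 0.886) with all libraries and 0.05 (limma adjusted p = 0.807) without replicate 10, so that 1 library set its sign. Stx1a (0.02) and Vamp1 (-0.04) differed by little on the same scale, with limma adjusted p of 0.981 and 0.946.

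The syntaxin-binding proteins gave 1 higher and 6 lower estimates of 7, with a median of -0.04 on the log2 scale. Stxbp5l, a tomosyn that competes for syntaxin and restrains fusion, had the lowest adjusted p of this set, 106 ± 7.86 CPM in KO (SD, n = 5) against 116 ± 5.74 in WT (SD, n = 4), a difference of -0.13 (limma adjusted p = 0.803). Without KO replicate 10 it was -0.10 (limma adjusted p = 0.588).

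The complexins Cplx1 and Cplx2, which clamp and promote fusion, gave differences smaller than the spread between libraries. Cplx1 measured 227, 197, 242, 197 and 195 CPM in KO and 203, 262, 168 and 282 CPM in WT, a difference of -0.09 (log2, limma adjusted p = 0.921). Its WT values spanned a wider range than its KO values. Cplx2 measured 381, 358, 375, 347 and 231 CPM in KO, with WT values of 335, 376, 300.2 and 388 CPM. Replicate 10 was the lowest library, and the difference turned from -0.06 (limma adjusted p = 0.948) to 0.07 (limma adjusted p = 0.794) when it was left out.

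The 15 synaptotagmins and Doc2b, not all of which bind calcium, gave 7 higher and 9 lower estimates. These lay between -0.13 (Syt17) and 0.08 (Syt2) on the log2 scale, with a median of -0.01. Syt1, the sensor of fast synchronous release, had 766 ± 39.4 CPM in KO (SD, n = 5) and 779.8 ± 61.6 CPM in WT (SD, n = 4), a difference of -0.02 with a 95% interval from -0.17 to 0.12. Syt11, a synaptotagmin that does not bind calcium, was the most abundant of the family beside Syt1, with 165 ± 8.77 CPM per kb (SD over 9 libraries) beside 160.2 ± 9.85 for Syt1, 2 levels that differed by less than their spread. Syt4, which is found on peptide-containing vesicles, had 76.6 ± 8.24 CPM per kb, and its KO minus WT difference was -0.03 with all libraries and -0.11 without KO replicate 10 (limma adjusted p = 0.524). Syt7, a slow high-affinity sensor, had 133 ± 12.4 CPM in KO and 131 ± 23 CPM in WT.

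The priming and active zone genes gave 5 higher and 2 lower estimates of 7, with a median of 0.03. Unc13a, which opens syntaxin for SNARE assembly, had 205 ± 11.3 CPM in KO (SD, n = 5) and 212 ± 22.4 CPM in WT (SD, n = 4), and its relative Unc13b measured 69.5, 70.5, 71.6, 69.1 and 75.8 CPM in KO against 68.1, 64.7, 69.8 and 67.5 CPM in WT. The Unc13b groups overlapped through WT replicate 9 and KO replicates 2 and 8, and the difference was 0.08 (SE 0.06, limma adjusted p = 0.862, exact permutation p = 0.0476), or 0.06 without KO replicate 10 (limma adjusted p = 0.775). Cadps, which primes dense-core vesicles, had 466 ± 42.7 CPM in KO and 464 ± 12.8 CPM in WT, a difference of 0.00 with a 95% interval from -0.15 to 0.15. Rims1, a scaffold that ties vesicles and calcium channels to the release site, measured 144, 140.2, 150.0, 137 and 214 CPM in KO and 138, 153, 132 and 149 CPM in WT. Only replicate 10 lay above the WT range, and the Rims1 difference was 0.12 with it (limma adjusted p = 0.88) and 0.00 without it (limma adjusted p = 0.99).

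In the SNARE disassembly machinery, Napb was higher in every KO library than in any WT library. Napb (ENSMUSG00000027438, GRCm38 chr2:148693985-148732467, minus strand) encodes the brain-enriched beta-SNAP adaptor that brings the ATPase to the SNARE complex. It measured 342, 328, 433, 437 and 431 CPM in KO replicates 2, 4, 6, 8 and 10, and 263, 293, 314 and 285 CPM in WT replicates 1, 3, 9 and 11. The lowest KO library was 328 and the highest WT library 314, and KO replicates 6, 8 and 10 formed the upper end. The difference was 0.44 on the log2 scale (SE 0.10, 95% interval 0.22 to 0.66), with a limma adjusted p of 0.181 and an exact two-sided permutation p of 0.0159, the smallest that 5 against 4 libraries can give. Napb did not pass the adjusted threshold with all libraries, and it did without KO replicate 10 (0.40, limma adjusted p = 0.0496). Leaving out each of the other libraries in turn gave differences from 0.39 to 0.50, with limma adjusted p from 0.0851 to 0.582 (the highest without WT replicate 1).

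Napb was also the single vesicle fusion gene of 64 whose KO and WT libraries did not overlap, where 3.41% of all genes had no overlap (6.06% without KO replicate 10, with Napb again the single one). With replicate 10 counted as WT, as its title has it although its Clic1 value lay within the KO range, the Napb groups overlapped. The difference was then 0.29 (limma adjusted p = 0.736). Leaving out WT replicate 9 raised the count to 6 of 64, beside 6.21% of all genes, with Napb and Unc13b higher in KO and 4 genes lower, Snap25, Snap91 and Syt14 among them.

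The genes that work with Napb, Napa and Nsf, had lower estimates in KO and overlapping groups. Napa encodes the widely expressed alpha-SNAP. It measured 132, 133, 135, 139 and 117 CPM in KO and 139, 129.7, 162 and 148 CPM in WT. Its groups overlapped, and the difference was -0.14 (limma adjusted p = 0.807, exact permutation p = 0.127). Without KO replicate 10 it was -0.10 (limma adjusted p = 0.616). Nsf, the ATPase itself, had 612 ± 24.1 CPM in KO (SD, n = 5) and 633 ± 42.5 CPM in WT (SD, n = 4), a difference of -0.05. Within a library the log2 ratio of Napb to Napa was 1.58 ± 0.24 in KO (SD, n = 5) and 1.0 ± 0.12 in WT (SD, n = 4).

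That ratio was 1 of 12 ratios between related genes, which do not depend on how a library is scaled. The Napb to Napa ratio differed by 0.58 (exact permutation p = 0.0159, adjusted p = 0.19 over the 12 pairs by Benjamini-Hochberg). The Snap25 to Snap23 ratio, of the neuronal to the widely expressed SNAP, was 6.34 in KO and 6.6 in WT on the log2 scale (exact permutation p = 0.0476, adjusted p = 0.286). None of the 12 passed an adjusted p of 0.05. Of them, 2 had an unadjusted exact permutation p under it, and the other 10 had one from 0.27 to 0.952. No pair could pass alone, since 0.0159, the smallest p of this test with 5 against 4 libraries, becomes 0.19 over 12 pairs. The absence of a passing ratio is therefore a description only. The Vamp2 to Vamp1 ratio was 1.02 in KO replicate 10 and 2.52 in the mean of the other KO libraries.

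**Figure D2:**
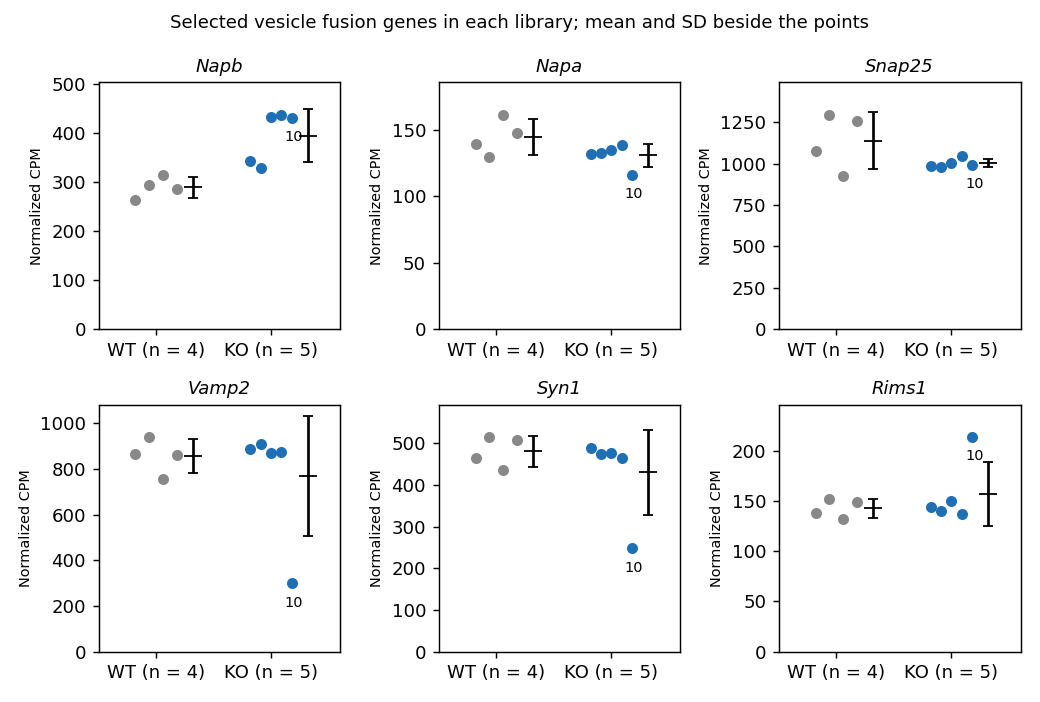
Normalized CPM of Napb, Napa, Snap25, Vamp2, Syn1 and Rims1 in each WT library (grey, n = 4) and each KO library (blue, n = 5), with mean and SD beside the points and KO replicate 10 marked. Every KO point of Napb lies above the highest WT point of 314, while in Vamp2, Syn1 and Rims1 the groups overlap except for replicate 10, at 299.9, 248 and 214 CPM.

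The synapsins tether vesicles in the reserve pool. Syn1 measured 489, 473, 476, 464 and 248 CPM in KO and 465, 515, 436 and 508 CPM in WT. As with Vamp2, 4 KO libraries lay within the WT range and replicate 10 far below it, and the difference was -0.20 (log2, limma adjusted p = 0.866) with replicate 10 and -0.01 (limma adjusted p = 0.969) without it. Syn2 had 350.0 ± 14.1 CPM in KO (SD, n = 5) and 342 ± 12.4 CPM in WT (SD, n = 4), a difference of 0.03. Snap91 measured 347, 354, 342, 334 and 273 CPM in KO and 360.0, 368, 349 and 356 CPM in WT, all KO libraries but replicate 4 lying below the lowest WT library. Its difference was -0.12 (limma adjusted p = 0.828, exact permutation p = 0.0317) and -0.06 without replicate 10 (limma adjusted p = 0.678).

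The 20 SNAREs of other membranes, which serve endosomes, lysosomes, the Golgi and constitutive secretion, gave 13 higher and 7 lower estimates, with a median of 0.06. Vamp5, a VAMP better known from muscle, was the scarcest of all vesicle fusion genes with a length, at 0.416 ± 0.185 CPM per kb (SD over 9 libraries). It measured 1.67, 1.71, 0.733, 1.72 and 1.09 CPM in KO and 0.814, 0.725, 0.50 and 0.826 CPM in WT. The groups overlapped through KO replicate 6, and the difference was 0.82 (SE 0.33, limma adjusted p = 0.711, exact permutation p = 0.0476), or 0.88 without KO replicate 10 (limma adjusted p = 0.424). The authors kept genes that reached 1 CPM in at least 5 samples, and Vamp5 reached it in 4 KO and 0 WT libraries, fewer than the filter asks for. How it met the filter was not tested, and 1 per-library column that matched no sample was not looked at. Among the 9 libraries used, those in which it reached that level were all KO. Its difference and p-values are therefore a description only. The other 63 vesicle fusion genes reached 1 CPM in all 9 libraries.

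Stx2, a plasma membrane syntaxin found outside synapses, measured 17.4, 17, 19.8, 15.6 and 18.6 CPM in KO and 12.4, 15.4, 14.3 and 17.8 CPM in WT, overlapping groups with a difference of 0.25 (limma adjusted p = 0.786). It was 0.23 without KO replicate 10 (limma adjusted p = 0.552). The endosomal syntaxins Stx12 and Stx7 went in opposite directions without passing the test. Stx12 had 127 ± 19.6 CPM in KO (SD, n = 5) and 115 ± 5.49 CPM in WT (SD, n = 4), a difference of 0.13 that was 0.04 without replicate 10. Stx7 had 104 ± 9.53 CPM in KO and 114 ± 3.65 CPM in WT, a difference of -0.13 that was -0.08 without replicate 10. Of the 64 genes, 15 overlap a coding gene on the opposite strand and 4 one on the same strand, and whether counting used strand was not given in the sources used here, so reads in an overlap cannot be told apart. Napb and Vamp2 overlap none.

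**Figure D3:**
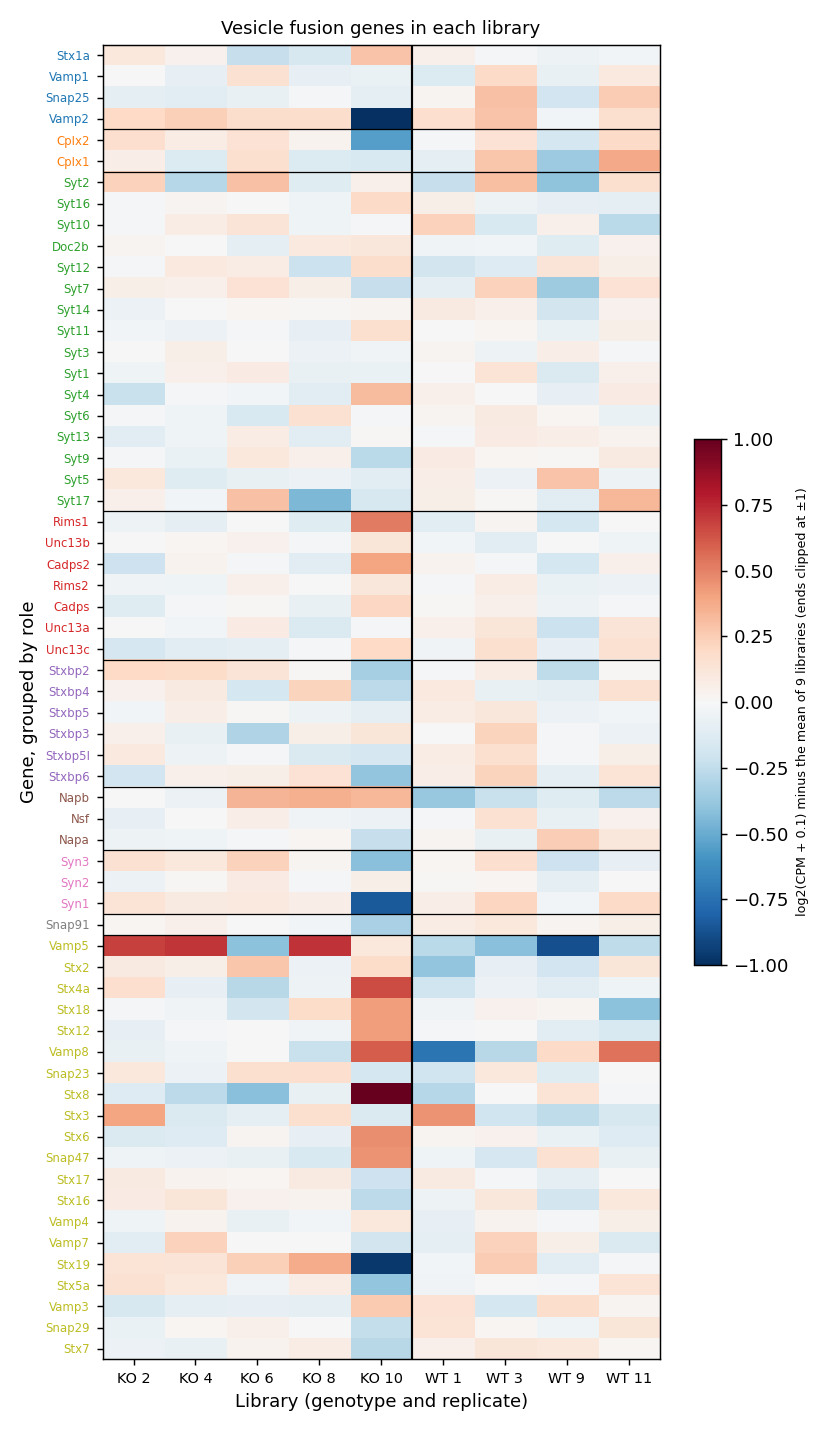
Deviation of 62 vesicle fusion genes (rows, ordered by role) in each library (columns) from their mean over the 9 libraries, on the log2(CPM + 0.1) scale with colours clipped at 1 either way. The KO replicate 10 column departs from the others in both directions, lowest at Vamp2 and highest at Stx8, and the Napb row is highest in KO replicates 6, 8 and 10.

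KO replicate 10 stood apart from its group in many vesicle fusion genes, in both directions. It lay above all other 8 libraries in 21 of 64 and below them in 19 of 64, beside 30.1% and 28.3% of all genes. The 40 of 64 outside that range, 62.5%, were near the 58.5% of all genes. Within the 64 genes the directions were uneven between roles. Of the 7 priming and active zone genes 6 were above the other libraries and 0 below, of the 7 syntaxin-binding proteins 0 were above and 5 below, and of the 3 synapsins 0 were above and 2 below. The synaptotagmins and Doc2b, 16 genes, split into 5 above, 1 below and 10 inside the range, and the 20 SNAREs of other membranes into 9 above, 7 below and 4 inside. Active zone genes outside the 64 went both ways in the same library. Bsn, Rims3 and Rims4 were below the other 8 libraries, Erc2, Ppfia2 and Ppfia3 above them, and Pclo, Erc1 and Rimbp2 inside the range. These counts and positions come from 1 library, with no test. Leaving it out moved the KO minus WT differences of the core genes not given above by little: Cplx1 from -0.09 to -0.06, Syt1 from -0.02 to -0.01, Nsf from -0.05 to -0.04, Vamp1 from -0.04 to -0.03 and Syn2 from 0.03 to 0.02 (log2), with Unc13a at -0.04 in both. Stx1a went from 0.02 to -0.05 and Cadps from 0.00 to -0.05.

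By size, 3 of 64 genes deviated at least 2-fold from the mean of the other KO libraries, 4.69% beside 4.59% of all genes. Vamp2 was at 33.9% of the mean of the other 4 KO libraries (299.9 against 885 ± 17.6 CPM, SD, n = 4) and Stx19, a scarce syntaxin relative, at 43%. Stx8, an endosomal SNARE, was 2.41-fold higher, at 32.5 CPM against 13.5 ± 1.39 CPM (SD, n = 4). Among the 5028 genes averaging 50 CPM or more, 0.835% were at least 2-fold lower, as was 1 of 40 vesicle fusion genes (2.5%). Of those 5028, 5 (0.0994%), Vamp2 included, fell as far as Vamp2. That limit is the value of Vamp2 itself, so the share is a description. The next largest deviations on the low side were Syn1 (-0.94 on the log2 scale), Cplx2 (-0.66), Syn3 (-0.54) and Stx5a (-0.47). On the high side they were Stx4a (0.71), Rims1 (0.58), Stx6 (0.55) and Snap47 (0.53), counting genes that averaged 5 CPM or more.

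Within the vesicle fusion genes these deviations had little relation to transcript properties. Across genes, which are not independent replicates, Spearman's rho of the deviation was -0.02 with GC content and 0.05 with transcript length (n = 63 genes), and -0.04 with mean CPM (n = 64 genes). Over 12032 genes that averaged 5 CPM or more and had a transcript length, rho with length was -0.26. The summed level of 6 ribosomal protein genes was 1472 CPM in replicate 10, 642 to 658 CPM in the other KO libraries and 561 to 889 CPM in WT. The sum of 6 neuronal markers was 4119 CPM in replicate 10, 3526 to 3600 CPM in the other KO libraries and 3618 to 3783 CPM in WT. The single markers went both ways in replicate 10, with 3 above all other libraries (Map2 at 2951 CPM, Nefl at 482, Tubb3 at 346) and 2 below them (Elavl3 at 128 CPM against 211 to 269, Rbfox3 at 96.3 against 121 to 143). All of these moved with the same library, as did its depth of 20.8 M reads, and their part in the Vamp2 and Syn1 values was not tested.

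**Figure D4:**
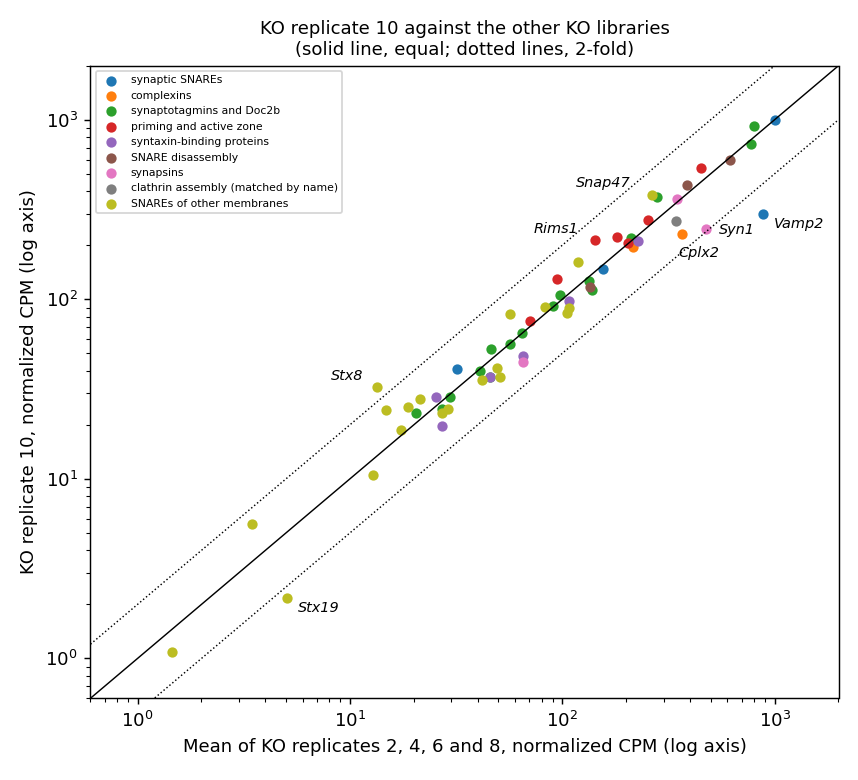
Of the vesicle fusion genes, 62 in KO replicate 10 against the mean of KO replicates 2, 4, 6 and 8, in normalized CPM on log axes, coloured by role. Most points lie within the dotted 2-fold lines, Vamp2 (299.9 against 885 CPM) and Stx19 fall below them and Stx8 above.

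The WT libraries differed among themselves in the neuronal core of the machinery. In a set of 14 core genes (Vamp1, Vamp2, Snap25, Stx1a, Syt1, Cplx1, Cplx2, Syn1, Syn2, Unc13a, Rims1, Nsf, Napb and Cadps) WT replicate 9 was the lowest of the 4 WT libraries in 12 and WT replicate 3 the highest in 9. Over all 64 vesicle fusion genes replicate 9 was lowest in 38, or 59.4%, where it was lowest in 29.9% of all genes. Replicate 3 was highest in 32 of 64, or 50%, where it was highest in 26.4% of all genes. The median deviation of the core genes from the rest of the WT group was -0.17 (log2) in replicate 9 and 0.14 in replicate 3, beside 0.00 for all genes in both. Vamp1 and Napb, both lowest in WT replicate 1, were the exceptions for replicate 9, and Napb was highest there, at 314 CPM.

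Other readouts of WT replicate 9 were also the highest or lowest of the WT libraries. Its ribosomal protein sum was 889 CPM, the highest of the WT libraries. Its summed neuronal markers were 3618 CPM, the lowest of the WT libraries but close to the 3629 CPM of WT replicate 1. The single markers did not all go the same way. Rbfox3, Map2, Elavl3 and Nefl were lowest in replicate 9, Tubb3 was highest there (330 CPM), and Elavl4 was lowest in WT replicate 11. The part of these readouts in the core genes was not tested. Rescaling each library to the same sum gave 11 of 14 core genes lowest in replicate 9, and rescaling by median ratios gave 12. In 58 of 64 vesicle fusion genes the highest and lowest WT library were further apart than the KO and WT means on the log2 scale. A range over 4 libraries is usually wider than a difference of means, and the share over all genes was not computed. The count is therefore a description and not a trait of these genes. The median WT spread was 0.27 in these genes and 0.28 in all genes.

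**Figure D5:**
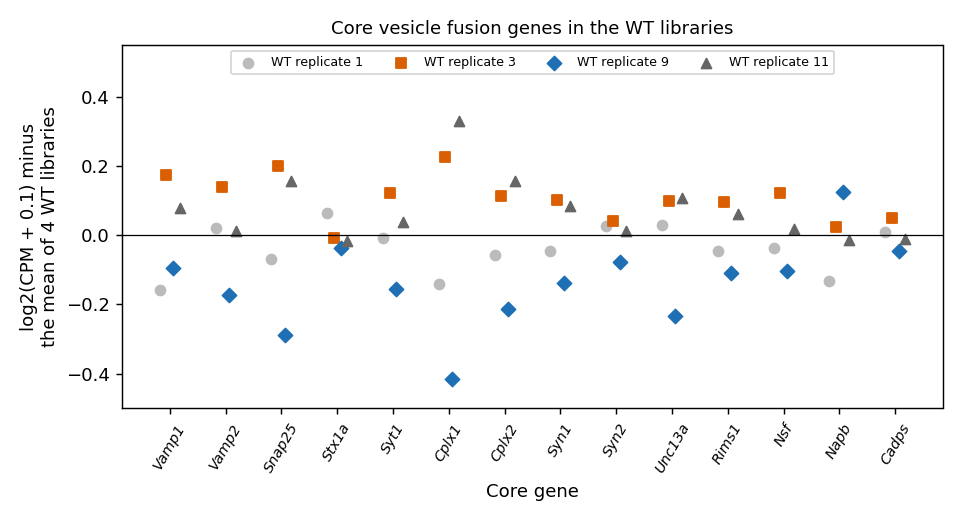
The 14 neuronal core genes in the 4 WT libraries, as the deviation from the WT mean on the log2(CPM + 0.1) scale. WT replicate 9 is the lowest point in 12 of the 14 genes and WT replicate 3 the highest in 9, with Napb highest in replicate 9.

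Genes of neighbouring steps, taken as lists that share no gene with the 64, gave medians near 0. All 29 listed genes of vesicle docking and release, 15 of endocytosis and 9 of the exocyst, which tethers vesicles to the plasma membrane, had values, and 0 of each list passed the limma adjusted threshold (0.286% of all genes). The median differences were -0.0029, -0.0067 and 0.013 on the log2 scale. At an unadjusted limma p under 0.05 there were 3 of the 29 release genes and 0 of the other lists (6.5% of all genes).

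Sv2b, a synaptic vesicle glycoprotein gene, was among those 3, with 95.3, 90.7, 102, 100.1 and 90.1 CPM in KO replicates 2, 4, 6, 8 and 10 and 109, 126.3, 118 and 113 CPM in WT replicates 1, 3, 9 and 11. Every KO library was below every WT library, and the difference was -0.28 (SE 0.07, limma adjusted p = 0.219), or -0.26 without KO replicate 10 (limma adjusted p = 0.0642). Doc2a, a calcium sensor of spontaneous and asynchronous release, measured 29, 25.7, 31.9, 28.4 and 29 CPM in KO and 25.2, 22.5, 25 and 23.7 CPM in WT. Its groups did not overlap either, with KO higher by 0.25 (limma adjusted p = 0.568, and 0.276 without replicate 10). Sv2b and Doc2a were the 2 of 29 release genes without overlap, and the other lists had 0, beside 3.41% of all genes. Rab3b, a small GTPase of secretory vesicles, had 65.7 ± 6.43 CPM in KO (SD, n = 5) and 55.7 ± 3.18 CPM in WT (SD, n = 4), with overlapping groups and a difference of 0.23 (limma adjusted p = 0.634, and 0.276 without replicate 10).

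Among the hypothalamic peptide markers, Avp, which encodes vasopressin, was the 1 gene of 10 past the threshold, where 0.286% of all genes were. It measured 193, 197, 199.8, 189 and 255 CPM in KO and 122, 96.0, 123 and 103 CPM in WT, a difference of 0.90 (limma adjusted p = 0.0027), or 0.82 without KO replicate 10 (limma adjusted p = 2.02e-05). Every KO library lay above every WT library, and 3.41% of all genes had no overlap in one direction or the other. The summed level of the 10 peptide genes ranged from 506 to 546 CPM in WT and from 562 to 767 CPM in KO. Without Avp the other 9 overlapped between groups, with sums of 384 to 443 CPM in WT and 374 to 512 CPM in KO, and 6 of them had higher and 3 lower estimates in KO. The part of peptide gene levels in the Napb values was not tested.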

How the data were processed

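Hypothalamic RNA from 5 Clic1 KO and 4 WT mice was sequenced. According to the methods and the submitters' processing notes, the authors trimmed reads (Trimmomatic 0.38), aligned them to GRCm38.p6 (STAR 2.5.1a), estimated counts (RSEM 1.3.0), kept genes with at least 1 CPM in at least 5 samples, and applied TMM. The deposited signal is this normalized CPM. Between 81.3% and 86.6% of a library's low values (2.5 CPM or less) came out as whole reads, to within 0.03, so counts were not recovered. RSEM shares reads between near-identical transcripts, which leaves levels of close paralogs uncertain. The authors' comparison columns (log fold changes, average expression, test statistics and p-values) were not used, and 1 per-library column that matched no sample was not used.

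Log2(CPM + 0.1) was the response in limma 3.58.1 under R 4.3.3 (eBayes with a trend after lmFit, genotype alone), two-sided, with Benjamini-Hochberg adjustment over 14351 genes. The study fitted voom to counts, which was tried here on CPM times estimated depth. Single genes and ratios were tested with two-sided exact permutation tests (scipy 1.17.1), and fold changes on this scale understate low genes. For single genes the exact permutation p is unadjusted and is given for some of the named genes only. The fit was tested on simulated data. Positions and lengths came from GENCODE release 21 on GRCm38, and Vamp7 had no chromosome position.

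Named genes were those past the threshold or without overlap, the 5 smallest p-values in each direction, neuronal core genes, the 5 largest deviations of KO replicate 10 in each direction (genes averaging 5 CPM or more), and related and marker genes that stood beside a result. Genes named outside this rule (examples within a role) were chosen after their values were seen. Counts cover all 64 genes, and 2 genes are not reported here by name or in figures, which leaves 14 core genes. Members and lists were chosen with earlier results of these data known. Replicates are separate mice as labelled. Alternatives were the pseudocount, a filter, scaling, trend, weights, voom, the label of replicate 10 and leaving out each library.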

Additional observations from a re-analysis of the deposited data

Results flagged for a closer look

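In 68 groups of values (34 genes in KO and in WT libraries), Dixon's test at the 95% level found a library far from its own group in 9. Chance flags about 1 in 20 groups, but the genes were not picked blind to this. KO replicate 10 deviated most in 10 of the 34, and 7 of the 9 flags fall on those 10. The count is therefore a description, and so is the fact that the library was KO replicate 10 each time. It was low in Vamp2 (299.9 CPM, the other KO libraries 872 to 909), Syn1 (248 CPM against 464 to 489), Cplx2 (231 CPM against 347 to 381) and Snap91 (273 CPM against 334 to 354). It was high in Stx8 (32.5 CPM against 11.7 to 14.9), Rims1 (214 CPM against 137 to 150.0), Snap47 (383 CPM against 253 to 271), Stx12 (162 CPM against 114 to 121) and Stx6 (82.5 CPM against 54.0 to 60.8). Vamp2, Syn1, Cplx2 and Rims1 also belong to the neuronal core and were named by that list too. Snap91 and Stx12 are the 2 flagged genes outside the 10 with the largest deviations, although their KO minus WT estimates include the same library.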

How the results depend on the processing

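No paired analysis was run, because no pairing or litter of single KO and WT mice was known here. Litter was therefore not modelled. The count of genes past the threshold over all genes, 41, was 27 among genes averaging 5 CPM or more, 135 with sample weights, 5 with replicate 10 as WT, and 18 to 87 with each library left out. The count of vesicle fusion genes, 0, was 1 with sample weights (Napb, 0.43, limma adjusted p = 0.016) and 0 to 1 with each library left out, and that of the related lists, 0, was 1 with sample weights (Sv2b, -0.25, limma adjusted p = 0.0486). The count without overlap, 1, was 0 with replicate 10 as WT and 1 to 6 with each library left out. The count outside the range in KO replicate 10 stayed between 38 and 46, and the count of ratios stayed at 0 with each library left out. With fewer libraries the smallest p of the exact test is larger, so that count of ratios was nearly fixed in advance. With replicate 10 as WT, Stx12 (-0.058) and Snap91 (0.022) changed sign. The causes were not tested. Of 246 alternative values of 13 tested genes, 241 kept direction and side of the threshold. The 8 of 380 moved values without a test all came from replicate 10 as WT. The rescaling behind the WT replicate 9 counts was chosen after seeing the data. The number of libraries limits precision, and the depth of KO libraries other than replicate 10 was at most 7.70 M reads.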

Other observations

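The genes around Napb were looked at after its values were seen. Of 6 other genes with values within 1 Mb of Napb, 0 passed the limma adjusted threshold (0.286% of all genes), 2 had an unadjusted limma p under 0.05 (6.5% of all genes) and 0 had groups without overlap (3.41% of all genes). Both had higher estimates in KO: Sstr4, a somatostatin receptor, by 0.44 (log2, limma adjusted p = 0.716), and Thbd, the endothelial thrombomodulin, by 0.79 (limma adjusted p = 0.767). Cst3, an abundant secreted protease inhibitor gene, had 874 CPM in KO and 739 CPM in WT with overlapping groups (0.22, limma adjusted p = 0.866). Napb and Avp lie on the same chromosome, 18.1 Mb apart.

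The vesicle fusion genes were spread over 19 chromosomes, 6 of them on chromosome 2 and 0 on chromosome 17, where Clic1 lies. Vamp8 and Vamp5 are neighbours on chromosome 6, 4.755 kb apart on the same strand. Vamp8 measured 3.48, 3.56, 3.66, 3.13 and 5.64 CPM in KO and 2.17, 3.0, 4.20 and 5.37 CPM in WT. Its groups overlapped, with a difference of 0.12 on the log2 scale (limma adjusted p = 0.946), or -0.02 without KO replicate 10 (limma adjusted p = 0.989). Vamp2 and Stx8, which deviated most in KO replicate 10 and in opposite directions, lie 881 kb apart on chromosome 11.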
